A study of Homo sapiens with 12 samples.

Results

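Transcript levels of 10 genes that use or make NAD were followed in Huh-7 xenograft tumours: CD38, PARP1, PARP2, SIRT1 and SIRT6, which consume NAD, NAMPT, NMNAT1, NAPRT and NADSYN1, which make it, and NNMT, which methylates its precursor nicotinamide. They were taken by symbol from 19988 protein-coding genes, and the set was chosen by the measured levels of CD38 and PARP1, which were lower in irradiated tumours. The differences of CD38 and PARP1 between irradiated and unirradiated groups are therefore given as a description, with no test. All 10 passed the filter on low counts and are among the 13521 genes tested. NNMT passed it largely through the irradiated libraries, where its counts were highest, so its radiation differences are given without a test.

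NAD carries electrons in metabolism and is also cut as a substrate. Poly(ADP-ribose) polymerases split it to build ADP-ribose chains at DNA breaks, sirtuins split it to remove acyl groups from proteins, and CD38 splits it at the cell surface and in organelles to form ADP-ribose and the calcium messenger cyclic ADP-ribose. Each reaction releases nicotinamide, which NAMPT and the NMNAT enzymes return to NAD, while liver cells can also build NAD from tryptophan and nicotinic acid.

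Huh-7 is an established human hepatocellular carcinoma line, injected here subcutaneously into BALB/c nude mice aged 6 weeks. The study asked how the tumours responded to CS2164 and radiation, and dosing started at a mean tumour volume of 150 to 200 mm3. Each of the 4 groups has 3 libraries. Mice were anesthetised with pentobarbital before radiation. CS2164_IR tumours received CS2164, a kinase inhibitor also named chiauranib, at 10 mg/kg per day by oral gavage together with radiation of 2 Gy per day in 10 fractions. IR tumours received the same radiation without the drug, CS2164 tumours the drug without radiation, and control tumours neither. Mice not given the drug had its co-solvent, per the labels. The host strain lacks T cells but keeps other mouse cells. The sources used here do not give the handling of mouse reads. The titles of the treated samples name other Huh numbers, while the cell line label reads Huh-7 for all 12.

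The libraries held 12886607 to 16890346 counts. Hepatocyte and liver cancer genes such as ALB and AFP were expressed in every library. Of 10 lymphoid and plasma cell markers, 9 stayed under 10 counts in every library. Levels are CPM, counts scaled to a common library size with TMM factors, given for replicates 1, 2 and 3 and then as mean ± SD (n = 3). Fold changes are log2 values with their standard error, and a gene was called at an adjusted p under 0.05. The labels do not say that replicates came from separate animals, so the p-values measure the spread between these samples only. In tumour tissue, fewer cells of a type and less RNA per cell cannot be told apart.

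The promoters of CD38 and PARP1 are printed because these are the members on which the set turns, and they differ in base composition. Each runs 5′ to 3′ on the strand of its gene, from 250 bases before to 50 bases after the RefSeq start in GRCh38.p14, and capitals mark matches to CCAAT or to the GC box GGGCGG on either strand.
CD38, chr4:15778078-15778377, plus strand: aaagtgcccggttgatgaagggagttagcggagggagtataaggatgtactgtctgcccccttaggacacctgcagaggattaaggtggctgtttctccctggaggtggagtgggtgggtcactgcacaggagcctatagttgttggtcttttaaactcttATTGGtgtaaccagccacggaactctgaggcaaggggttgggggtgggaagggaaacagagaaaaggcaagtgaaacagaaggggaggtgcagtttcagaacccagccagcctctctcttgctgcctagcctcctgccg
PARP1, chr1:226408044-226408343, minus strand: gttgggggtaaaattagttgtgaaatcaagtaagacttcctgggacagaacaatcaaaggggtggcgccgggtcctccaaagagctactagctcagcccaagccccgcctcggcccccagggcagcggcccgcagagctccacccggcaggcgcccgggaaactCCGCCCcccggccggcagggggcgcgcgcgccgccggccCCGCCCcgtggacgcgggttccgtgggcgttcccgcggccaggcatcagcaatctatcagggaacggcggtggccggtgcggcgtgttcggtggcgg
The CD38 window had a GC content of 54%, 4 CpG dinucleotides, no GC box and 1 CCAAT match. The PARP1 window had a GC content of 70%, 33 CpG dinucleotides, 2 GC boxes and no CCAAT match. TATAAA was found in neither. Over 35116 RefSeq promoters of the same length the median GC content was 58.7% with 14 CpG dinucleotides. GGGCGG was present in 45% of them, CCAAT in 34.6% and TATAAA in 11.5%, with both strands searched. A match describes letters only and is no evidence of a bound factor.

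CD38 (ENSG00000004468, GRCh38 chromosome 4, 15778275 to 15853230, plus strand) had 23.5, 25.8 and 34.4 CPM in CS2164_IR tumours (27.9 ± 5.76), 27.9, 27.6 and 27.4 CPM in IR tumours (27.6 ± 0.249), 64.5, 75.4 and 56.9 CPM in CS2164 tumours (65.6 ± 9.29), and 48.6, 48.6 and 57.0 CPM in control tumours (51.4 ± 4.86). All 6 irradiated libraries were below all 6 unirradiated ones. Their ranges were 23.5 to 34.4 CPM with radiation and 48.6 to 75.4 CPM without, on 295 to 1044 reads per library. The log2 difference was -0.90 ± 0.16 in IR against control tumours, a level of 0.537 times control. It was -1.23 ± 0.16 in CS2164_IR against CS2164 tumours, or 0.426 times, and -0.88 ± 0.16 in CS2164_IR against control tumours.

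PARP1 (ENSG00000143799, chromosome 1, 226360691 to 226408079, minus strand), the main sensor of DNA strand breaks among the polymerases, had 232, 271 and 204 CPM in CS2164_IR tumours (236 ± 33.8), 249, 271 and 243 CPM in IR tumours (255 ± 14.7), 338, 366 and 346 CPM in CS2164 tumours (350 ± 14.8), and 289, 289 and 313 CPM in control tumours (297 ± 13.7). Again no irradiated library reached an unirradiated one, with 204 to 271 CPM against 289 to 366 CPM. The log2 difference was smaller than that of CD38 in each pair. It was -0.22 ± 0.13 in IR against control tumours, or 0.858 times, -0.57 ± 0.13 in CS2164_IR against CS2164 tumours, or 0.674 times, and -0.33 ± 0.13 in CS2164_IR against control tumours. Across genes, the differences also followed GC content, with Spearman's rho of 0.438 in IR against control tumours, -0.113 in CS2164_IR against CS2164 tumours and 0.48 in CS2164_IR against control tumours, as a description. For the table's gene length, rho was 0.0318, -0.291 and -0.0125 in these pairs. With trends over GC content and the table's gene length removed, PARP1 was at -0.37, -0.34 and -0.49 in these pairs, and CD38 at -0.83, -1.27 and -0.81.

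Among all tested genes, 212 (1.57%), CD38 and PARP1 included, had all 6 irradiated libraries below all 6 unirradiated ones. CD38 is also carried by lymphoid and plasma cells. The 10 markers of these cells together took 0.000923% to 0.0025% of counts in CS2164_IR tumours, 0.00132% to 0.00158% in IR tumours, 0.00107% to 0.00167% in CS2164 tumours and 0.000671% to 0.00106% in control tumours. Most of these counts were CD3D, and MS4A1 was at 0 throughout. The range in IR tumours lay above that in control tumours, and the ranges of CS2164_IR and CS2164 tumours overlapped. Their part in the CD38 levels was not tested.

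Other markers differed between groups as well. The 8 hepatocyte and Huh-7 identity genes took 4.05% to 5.76% of counts in CS2164_IR tumours, 3.51% to 4.02% in IR tumours, 3.67% to 5.68% in CS2164 tumours and 4.96% to 5.78% in control tumours. All IR libraries were thus under all control libraries. The 7 fibroblast and pericyte markers took 0.0061% to 0.0072% in CS2164_IR tumours, 0.00573% to 0.00894% in IR tumours, 0.00507% to 0.00796% in CS2164 tumours and 0.00373% to 0.00437% in control tumours. For this sum every treated library was above every control library. It was weighted towards COL1A2, at 279 to 1023 counts per library, while no other of these markers exceeded 173 counts. The part of these marker shifts in the CD38 and PARP1 differences was not tested.

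**Figure D1:**
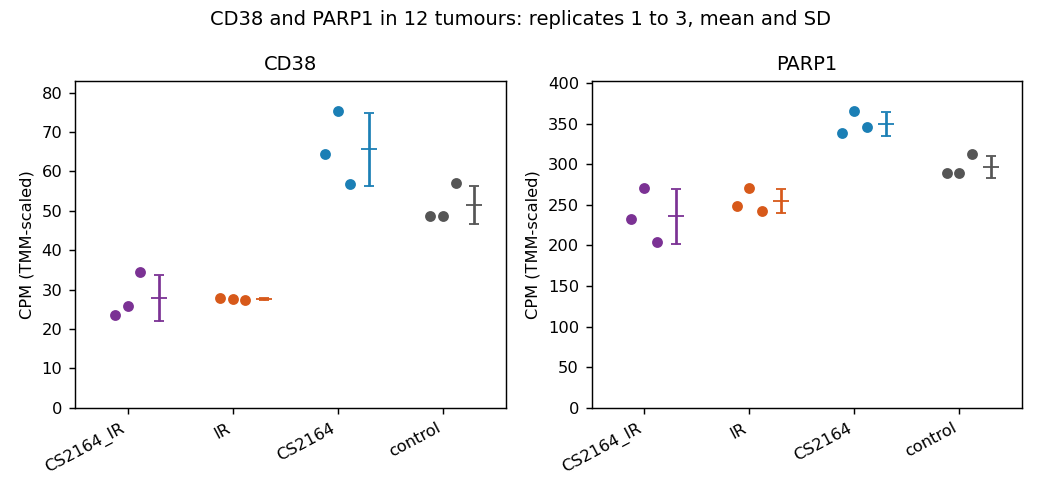
Levels of CD38 and PARP1 in CPM by group, with 1 point per library and a bar for the mean and SD of 3 libraries. For CD38 the irradiated libraries lie at 23.5 to 34.4 CPM and the unirradiated ones at 48.6 to 75.4 CPM; for PARP1 they lie at 204 to 271 and 289 to 366 CPM.

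The effect of CS2164 was not used to choose the genes and was tested. Without radiation, CD38 was higher by 0.35 ± 0.16 in CS2164 against control tumours on the log2 scale (95% interval 0.02 to 0.68), and it missed the threshold after Benjamini-Hochberg adjustment over all genes in the edgeR quasi-likelihood test (adjusted p = 0.124). The libraries overlapped by a narrow margin, since the lowest CS2164 library was 56.9 CPM and the highest control library 57.0 CPM. PARP1 was higher by 0.24 ± 0.13 (interval -0.04 to 0.51, adjusted p = 0.216), and its 3 CS2164 libraries lay above its 3 control libraries. Across genes, the differences in this pair were larger at higher GC content and greater gene length (Spearman's rho 0.453 and 0.245, a description). With trends over GC content and the table's gene length removed, CD38 was at 0.47 (adjusted p = 0.0336) and PARP1 at -0.15, a change of direction. CD38 missed the threshold again when the replicate block was added (adjusted p = 0.053) and with the longest transcript as length, at 0.39 (adjusted p = 0.0838), where PARP1 was at 0.12.

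On top of radiation, CD38 differed by 0.02 ± 0.16 in CS2164_IR against IR tumours (interval -0.32 to 0.36, adjusted p = 1) and PARP1 by -0.11 ± 0.13 (interval -0.39 to 0.17, adjusted p = 1). The libraries overlapped for both genes. Whether the radiation effect depended on the drug was tested as an interaction. It was -0.33 ± 0.23 for CD38 (adjusted p = 0.421) and -0.35 ± 0.19 for PARP1 (adjusted p = 0.304), so neither passed, and an interaction of -0.81 to 0.14 for CD38 and of -0.74 to 0.05 for PARP1 lies within the 95% intervals. With trends over GC content and the table's gene length removed the interaction of PARP1 was at 0.03. It was negative in 20 of 22 alternatives, among them removal of trends over GC content and longest-transcript length.

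PARP2 (ENSG00000129484, chromosome 14, 20343582 to 20357905, plus strand), a relative of PARP1 that shares its role in break repair, had 34.7, 30.9 and 36.1 CPM in CS2164_IR tumours (33.9 ± 2.71), 36.2, 35.5 and 39.6 CPM in IR tumours (37.1 ± 2.18), 19.4, 28.9 and 31.2 CPM in CS2164 tumours (26.5 ± 6.27), and 30.0, 45.1 and 34.9 CPM in control tumours (36.6 ± 7.74). The groups overlapped, with the highest level in control replicate 2 and the lowest in CS2164 replicate 1. PARP2 was at -0.47 ± 0.18 in CS2164 against control tumours (adjusted p = 0.0814), but at -0.11 without these 2 libraries. It passed at -0.59 (adjusted p = 0.0457) without control replicate 1 and at -0.60 (adjusted p = 0.048) without CS2164 replicate 3. Between IR and control tumours its difference was 0.02 ± 0.18 (adjusted p = 0.974).

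SIRT1 (ENSG00000096717, chromosome 10, 67884669 to 67918390, plus strand), a nuclear deacetylase of histones and transcription factors, had 22.4, 23.6 and 20.5 CPM in CS2164_IR tumours, 24.4, 22.7 and 19.3 CPM in IR tumours, 14.7, 21.5 and 23.8 CPM in CS2164 tumours, and 22.3, 28.9 and 24.5 CPM in control tumours. SIRT6 (ENSG00000077463, chromosome 19, 4174109 to 4182604, minus strand), a chromatin-bound sirtuin with a part in DNA repair, had 18.1, 15.5 and 13.6 CPM in CS2164_IR tumours, 14.6, 17.2 and 17.6 CPM in IR tumours, 17.2, 10.5 and 8.44 CPM in CS2164 tumours, and 14.3, 14.6 and 12.7 CPM in control tumours. The SIRT6 levels of IR tumours lay just above those of control tumours, with 14.6 CPM as the rounded edge of both groups, and the CS2164 libraries spread most. The SIRT1 groups overlapped. SIRT1 was at -0.34 ± 0.18 (adjusted p = 0.204) and SIRT6 at -0.20 ± 0.22 (adjusted p = 0.551) in CS2164 against control tumours. With trends over GC content and length removed, SIRT1 was at -0.03. Without CS2164 replicate 1, SIRT1 was at -0.16 (adjusted p = 0.545) and SIRT6 at -0.55 (adjusted p = 0.0603). In CS2164_IR against CS2164 tumours SIRT6 was at 0.38 ± 0.22 (adjusted p = 0.271), and at 0.73 (adjusted p = 0.0192) without that library, which passes the threshold.

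NAMPT (ENSG00000105835, chromosome 7, 106248285 to 106286326, minus strand), the rate-limiting enzyme that recycles nicotinamide, had 35.7, 52.2 and 58.6 CPM in CS2164_IR tumours (48.8 ± 11.8), 53.5, 56.6 and 43.7 CPM in IR tumours (51.3 ± 6.74), 43.0, 50.6 and 44.2 CPM in CS2164 tumours (46.0 ± 4.07), and 63.3, 88.6 and 50.8 CPM in control tumours (67.6 ± 19.3). Every CS2164 library was below every control library, the nearest at 50.6 and 50.8 CPM. NAMPT was at -0.56 ± 0.20 (interval -0.98 to -0.14, adjusted p = 0.0575), the lowest adjusted p of the members in CS2164 against control tumours, and at -0.31 (adjusted p = 0.325) without control replicate 2. It passed in 5 of 23 alternatives, among them at -0.73 (adjusted p = 0.0251) without control replicate 3 and at -0.56 (adjusted p = 0.0427) without CS2164_IR replicate 1. With trends over GC content and the table's gene length removed it was at -0.41, and with longest-transcript length in its place at -0.12. In IR against control tumours it was at -0.40 ± 0.20 (adjusted p = 0.342), and at -0.57 to -0.15 with 1 library left out.

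NMNAT1 (ENSG00000173614, chromosome 1, 9943428 to 9985501, plus strand), the nuclear enzyme that joins nicotinamide mononucleotide to an adenylate, had 10.2, 9.79 and 16.1 CPM in CS2164_IR tumours, 9.64, 12.0 and 12.7 CPM in IR tumours, 16.9, 14.2 and 14.4 CPM in CS2164 tumours, and 12.0, 12.8 and 12.1 CPM in control tumours. Its CS2164 libraries lay above its control libraries, at 0.30 ± 0.20 (adjusted p = 0.299). In CS2164_IR against CS2164 tumours it was at -0.34 ± 0.20 (adjusted p = 0.291), at -0.60 without CS2164_IR replicate 3 and at -0.20 without CS2164_IR replicate 2.

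The nicotinic acid branch starts with NAPRT (ENSG00000147813, chromosome 8, 143574785 to 143578649, minus strand) and ends with NADSYN1 (ENSG00000172890, chromosome 11, 71453109 to 71524107, plus strand), which turns the acid form of the dinucleotide into NAD. NAPRT had 63.0, 46.7 and 47.8 CPM in CS2164_IR tumours, 39.0, 46.6 and 46.7 CPM in IR tumours, 58.3, 42.2 and 28.9 CPM in CS2164 tumours, and 42.6, 44.1 and 34.3 CPM in control tumours. NADSYN1 had 83.6, 97.9 and 121 CPM in CS2164_IR tumours, 81.5, 99.4 and 118 CPM in IR tumours, 154, 88.6 and 90.4 CPM in CS2164 tumours, and 90.6, 83.9 and 85.9 CPM in control tumours. CS2164 replicate 1 was the highest of its group for both genes. In CS2164 against control tumours NADSYN1 was at 0.35 ± 0.20 (adjusted p = 0.216) and NAPRT at 0.10 ± 0.21 (adjusted p = 0.775). Without that library NADSYN1 was at 0.04 and NAPRT at -0.18. With trends over GC content and the table's gene length removed NADSYN1 was at -0.25 and NAPRT at -0.11. NADSYN1 was positive in 21 of 23 alternatives, among them trend removal with longest-transcript length. NAPRT in CS2164_IR tumours lay above NAPRT in control tumours in every library, at 0.38 ± 0.21 (adjusted p = 0.361). It was at 0.07 with trends over GC content and the table's gene length removed. An antisense gene covers 27.8% of the NAPRT exon bases in GENCODE 29, and without strand its reads cannot be told from those of NAPRT.

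NNMT (ENSG00000166741, chromosome 11, 114257787 to 114313285, plus strand) was close to the detection limit. It had 6, 20 and 22 reads in CS2164_IR tumours, 17, 11 and 14 reads in IR tumours, 11, 3 and 4 reads in CS2164 tumours, and 0, 10 and 10 reads in control tumours. The 0 allows up to 0.213 CPM, counting error only. The IR libraries, at 0.663 to 1.08 CPM, lay above the control libraries, which reached 0.628 CPM. The fitted difference was 1.08 ± 0.69 in IR against control tumours, and 0.54 to 1.47 with 1 library left out. It was 1.34 ± 0.69 in CS2164_IR against CS2164 tumours, and 1.05 to 2.08 with 1 library left out. These values are a description, since the filter kept NNMT for its irradiated libraries.

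**Figure D2:**
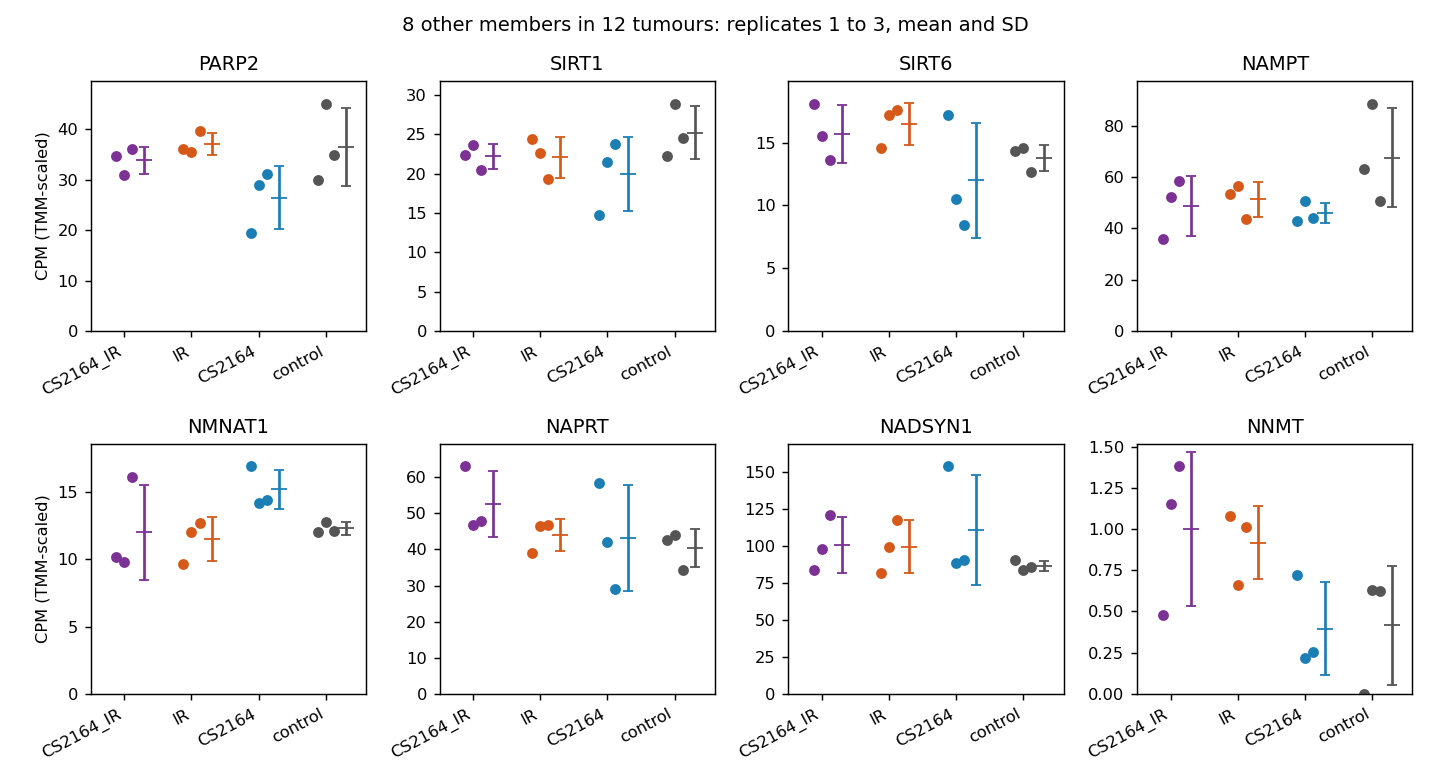
Levels of the other 8 members in CPM by group, with 1 point per library and a bar for the mean and SD of 3 libraries. The CS2164 group is the widest for NADSYN1, NAPRT, SIRT1 and SIRT6, and NNMT stays at or under 1.38 CPM.

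In CS2164 against control tumours none of the 10 members was called in the edgeR quasi-likelihood test, against 19.7% of all tested genes, and 3 members had an unadjusted p under 0.05, against 35% of all tested genes. DESeq2 called 1, NAMPT. Libraries did not overlap for 3 of the 10, PARP1, NMNAT1 and NAMPT, against 36.4% of all genes. In CS2164_IR against IR tumours none was called, against 0% of all genes, and none had an unadjusted p under 0.05, against 2.45%. DESeq2 called none of the 10 there. All 10 differences lay between -0.13 and 0.25, and the libraries of every member overlapped, whereas 9.5% of all genes did not.

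For the effect of radiation the test concerns the 7 members other than CD38, PARP1 and NNMT. None was called in IR against control tumours, against 0.436% of all genes, with differences from -0.40 for NAMPT to 0.25 for SIRT6. None of the 7 had an unadjusted p under 0.05, against 15.7% of all genes. Libraries did not overlap for 1, SIRT6, against 26.3% of all genes. None was called in CS2164_IR against CS2164 tumours, against 9.69% of all genes, with -0.34 for NMNAT1 to 0.38 for SIRT6. None of the 7 had an unadjusted p under 0.05, against 27.9% of all genes, and the libraries of all 7 overlapped, whereas 32.3% of all genes did not. In CS2164_IR against control tumours none was called, against 0.192%, and 1 (NAMPT) had an unadjusted p under 0.05, against 16.4%. Libraries did not overlap for NAPRT, against 26.4% of all genes. DESeq2 called none of the 7 in any of these 3 pairs. No member was called for the interaction either, as was the case for all 13521 genes, although 20.2% of the genes had an unadjusted p under 0.05. DESeq2 called 4.73% of all genes there and no member.

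**Figure D3:**
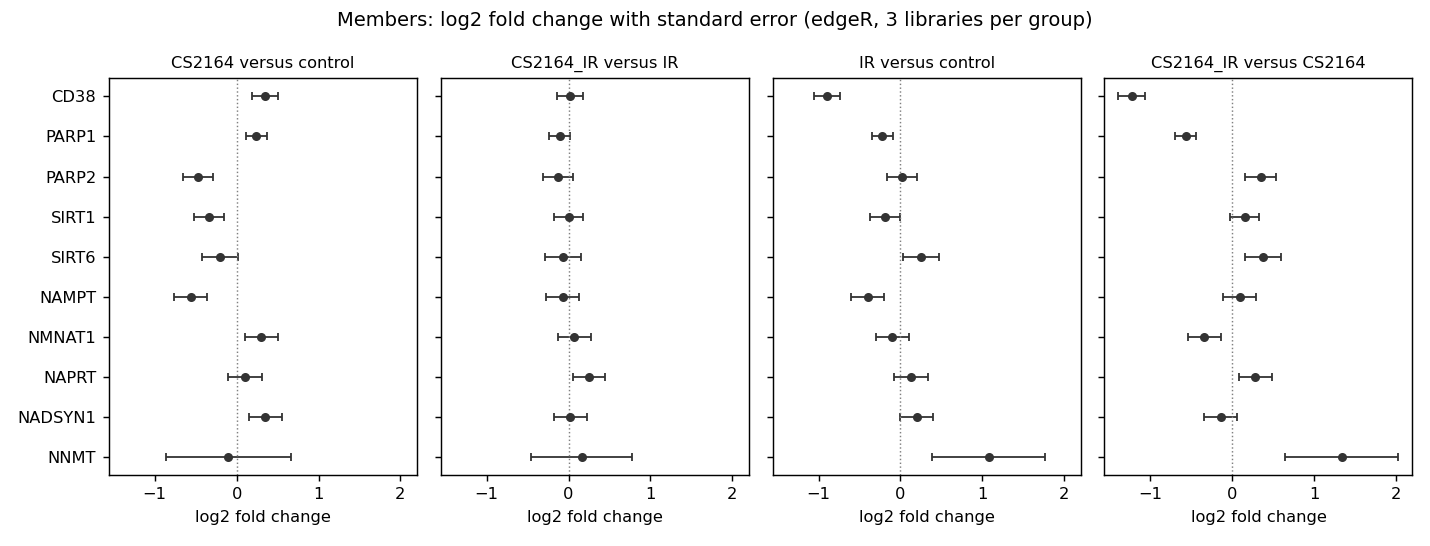
Log2 fold change of each member in the pairs of groups that differ by 1 treatment, with bars for 1 standard error. In IR against control and CS2164_IR against CS2164, CD38 lies at -0.90 and -1.23 and PARP1 at -0.22 and -0.57, both shown as a description. NNMT has the widest bars.

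The spread within groups differed among members. A small constant was added to CPM before the log2 was taken. Pooled over the 4 groups, the SD was then 0.12 for PARP1, 0.19 for CD38, 0.22 to 0.24 for SIRT1, NMNAT1 and PARP2, 0.29 to 0.30 for SIRT6, NADSYN1, NAMPT and NAPRT, and 0.49 for NNMT. The constant is of the size of the NNMT levels, so the value for NNMT understates its spread and is not comparable with the others. CS2164 replicate 1 was the lowest of its group for PARP1, PARP2, NAMPT and SIRT1. It was the highest of its group for SIRT6, NMNAT1, NAPRT, NADSYN1 and NNMT. PARP1 and CD38 had the smallest spread of the 10. They were chosen for their fall in irradiated tumours, which may favour genes of small spread, and PARP1 had the most reads of the members.

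Per length, the order of the members depended on the length used. By the authors' FPKM the medians over the 12 libraries were 16.1 for NAPRT, 15.2 for PARP1, 8.50 for PARP2, 5.89 for CD38, 5.59 for NADSYN1, 5.45 for SIRT6, 5.06 for SIRT1, 2.67 for NMNAT1, 2.23 for NAMPT and 0.248 for NNMT. The ranges of neighbours in this order overlapped except between PARP1 and PARP2 and between NAMPT and NNMT. The lengths behind these values exceed the longest transcript several times for some genes, 18399 against 3958 bases for PARP1 and 23584 against 4582 bases for NAMPT. Divided by the longest GENCODE 29 transcript, the medians were 70.8 CPM per kilobase for PARP1, 25.1 for NADSYN1, 23.2 for NAPRT, 17.4 for PARP2, 11.5 for NAMPT, 9.13 for SIRT6, 7.12 for CD38, 5.64 for SIRT1, 3.26 for NMNAT1 and 0.345 for NNMT. NNMT was the lowest on either scale.

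The 3 genes with the pattern most like CD38 were DOCK8, SLC7A2 and CREB3L2, at a root mean square difference of 0.22, 0.22 and 0.24 in centred log2 CPM over the 12 libraries, where CD38 itself varied by 0.56. DOCK8 averaged 10.5 ± 2.53 CPM in CS2164_IR, 9.73 ± 1.43 in IR, 20.7 ± 1.5 in CS2164 and 15.8 ± 1.96 in control tumours. Among the genes most like PARP1 were LARS2 at 0.08 and PARD3 at 0.09, where PARP1 varied by 0.24. LARS2 averaged 35.1 ± 4.34 CPM in CS2164_IR, 37.0 ± 1.21 in IR, 52.8 ± 3.27 in CS2164 and 42.2 ± 4.23 in control tumours. These genes share libraries with CD38 and PARP1, and the likeness is a description.

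A wider list of 60 genes covered the remaining NAD enzymes, transporters, ADP-ribosyl transferases, their cofactors and the other sirtuins, of which 55 were tested. NMNAT2, NMNAT3, IDO1, IDO2 and SLC25A52 fell under the filter. NMRK2 reached 10 counts only in irradiated libraries and passed the filter through them. Its radiation differences are therefore a description, at 1.99 ± 0.93 in IR against control tumours. CHD1L had 5, 30 and 25 counts in CS2164_IR and 21, 15 and 19 in IR tumours, against 11, 8 and 8 in CS2164 and 7, 9 and 13 in control tumours. It passed largely through irradiated libraries, so its radiation differences are a description too. NMRK2 and CHD1L stay in the counts and medians over the 55 below, in none of which the main fit called them. Passage of the filter was not examined for the remaining genes of the 55. In CS2164 against control tumours 1 of the 55 rose, 1 fell and 53 did not pass, where 19.7% of all tested genes passed, with a median difference of -0.07 against -0.01 over all genes. NT5E, the surface nucleotidase CD73 that can dephosphorylate nicotinamide mononucleotide, had 71.3, 96.9 and 78.2 CPM in CS2164 tumours, against 59.7, 58.0 and 55.4 CPM in control tumours. It rose by 0.51 ± 0.17 (adjusted p = 0.042). HPF1, the cofactor that steers PARP1 and PARP2 to serine residues, had 9.74, 17.8 and 17.3 CPM in CS2164 tumours, against 21.2, 31.4 and 22.4 CPM in control tumours, and fell by 0.74 ± 0.24 on the log2 scale (adjusted p = 0.0365). The libraries of either gene did not overlap between these groups. Each call rested on the processing, since NT5E passed in 11 and HPF1 in 15 of 23 alternatives, and HPF1 was at -0.06 once trends over GC content and length were removed.

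In IR against control tumours 1 of the 55 fell, none rose and 54 did not pass, where 0.436% of all tested genes passed, with a median of -0.10 against -0.01 over all genes. NADK2, the mitochondrial kinase that makes NADP from NAD, had 82.7, 75.0 and 72.2 CPM in IR tumours, against 118, 131 and 133 CPM in control tumours. It fell by 0.73 ± 0.16 on the log2 scale (adjusted p = 0.0488, passing in 11 of 23 alternatives). Every IR library was under every control library.

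In CS2164_IR against CS2164 tumours 1 of the 55 fell, none rose and 54 did not pass, where 9.69% of all tested genes passed, with a median of 0.07 against 0.04 over all genes. ZC3HAV1, the antiviral protein PARP13 that lacks transferase activity, had 48.6, 57.6 and 51.4 CPM in CS2164_IR tumours, against 62.6, 82.9 and 88.7 CPM in CS2164 tumours, with no overlap. It fell by 0.57 ± 0.16 on the log2 scale (adjusted p = 0.0317, passing in 18 of 23 alternatives). None of the 55 passed in CS2164_IR against IR tumours, where 0 had an unadjusted p under 0.05 against 2.45% of all genes. None passed for the interaction, where 4 did against 20.2%. DESeq2 called none of the 55 in either. In CS2164_IR against control tumours none passed in edgeR, 6 had an unadjusted p under 0.05 against 16.4% of all genes, and DESeq2 called 1. The lowest adjusted p there was that of NADK2, at -0.70 (adjusted p = 0.0625).

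**Figure D4:**
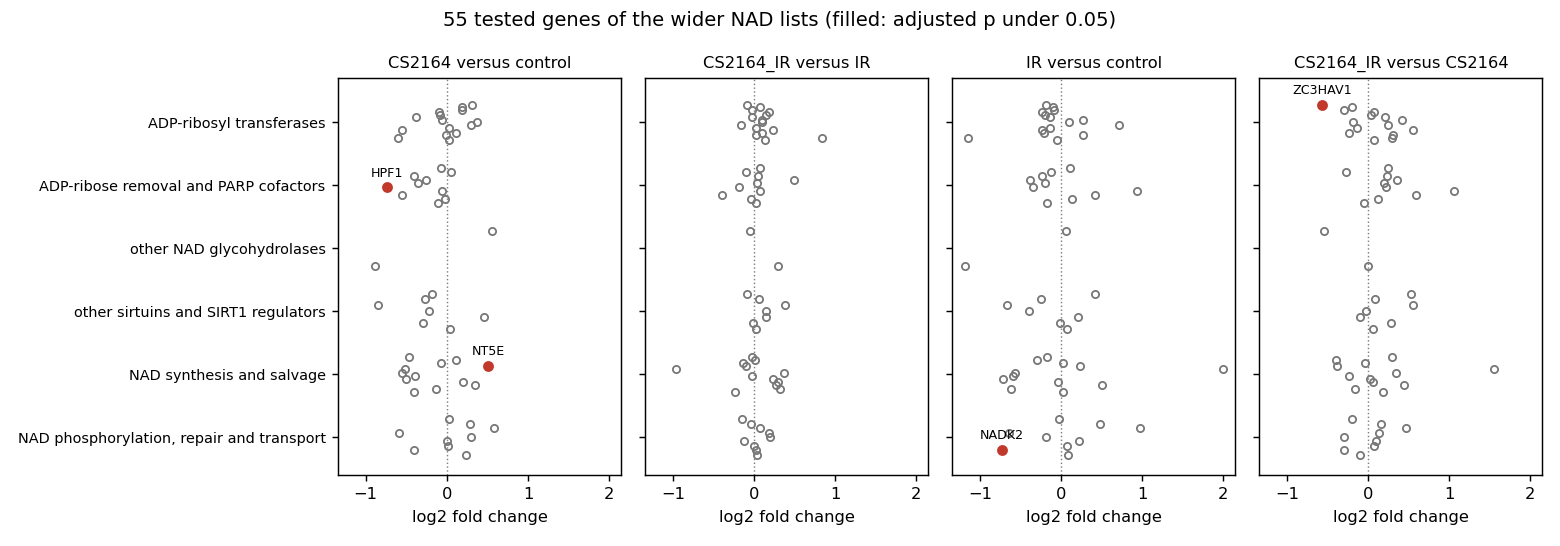
Log2 fold changes of the 55 tested genes of the wider lists in the pairs of groups that differ by 1 treatment, with 1 point per gene and the called genes marked. NT5E (0.51) and HPF1 (-0.74) are called in CS2164 against control, NADK2 (-0.73) in IR against control and ZC3HAV1 (-0.57) in CS2164_IR against CS2164.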

How the data were processed

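Messenger RNA of 12 xenograft tumours was sequenced after poly-T purification, and the library preparation marks no strand. Per the submitters' processing notes, the authors used HISAT2 2.1.0, HTSeq 0.9.1 and GRCh38, and no annotation release is named. The deposited read counts per gene were used for every test. The deposited FPKM equal the count per gene length and library total over this table, which was checked, and they serve only to compare levels between genes. Symbols were attached to 19941 of 19988 genes.

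Genes passing filterByExpr of edgeR 4.0.16 (R 4.3.3), 13521 in number, were scaled by TMM. A quasi-likelihood model with a term per group and no covariate was fitted to all 12 libraries. Benjamini-Hochberg adjustment ran over all tested genes in each of 5 pairs of groups and the interaction, with a threshold of 0.05. The code was tested on simulated counts. Floors of 3 counts cover counting error only. Genes that overlap others were looked up in GENCODE 29, and promoters are from RefSeq.

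The members and lists were chosen with earlier results of these data known. The text names all 10 members, of the wider lists every gene that passed (up to the 4 lowest adjusted p per comparison), and the 3 genes most like CD38 and PARP1, of which 1 is not reported here. NADK2 in CS2164_IR against control tumours, NMRK2 and CHD1L were named after their values were seen.

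Alternatives were upper-quartile and RLE scaling, no filter, a mean of at least 1 CPM, a replicate block, DESeq2 1.42.0, the compared groups alone, removal of trends over GC content and the table's gene length (spline with 4 degrees of freedom), the same with the block, and each library left out. In another, 2 libraries judged to stand apart were left out together (control replicate 2 and CS2164 replicate 1). No measure of their distance is given here. Removal of trends over GC content and longest-transcript length was chosen after seeing the data.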

Additional observations from a re-analysis of the deposited data

How the results depend on the processing

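The members called in CS2164 against control tumours numbered 0. They numbered 1 with upper-quartile scaling, without a filter and with DESeq2 (NAMPT each time), and 1 with GC and length trends removed (CD38). With 1 library left out the number ranged from 0 to 1. Of the 7 members other than CD38, PARP1 and NNMT, 0 were called in CS2164_IR against CS2164 tumours. That became 2 (NAPRT and SIRT6) without control replicate 2 and CS2164 replicate 1, and 0 to 1 with 1 library left out. No member count changed in the remaining pairs or the interaction.

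Of the wider list, 2 genes were called in CS2164 against control tumours. The number was 1 with the replicate block, 5 with DESeq2, 9 with GC and length trends removed with or without the block, 5 with longest-transcript length, and 0 without both libraries or with the compared groups alone. In IR against control tumours the number was 1. It was 0 with upper-quartile scaling, with a mean of 1 CPM and with the replicate block, 2 with DESeq2 and without both libraries, and 4 with trends removed in all 3 ways. In CS2164_IR against CS2164 tumours it was 1. It was 2 with upper-quartile scaling, 4 with DESeq2, 7 with trends removed in all 3 ways, 13 without both libraries and 0 with the compared groups alone. In CS2164_IR against control tumours it was 0. It was 1 without a filter, with DESeq2 and without both libraries, 2 with trends removed with or without the block, and 3 with longest-transcript length. With 1 library left out these numbers ranged from 0 to 5, 0 to 3, 0 to 5 and 0 to 1. The calls over all tested genes moved too. In CS2164 against control tumours they were 19.7% of genes, 24.2% with DESeq2, 16.1% with trends removed, 7.05% without both libraries and 2.18% with the compared groups alone. In IR against control tumours they were 0.436%, 2.57% with DESeq2 and 2.55% with trends removed, and in CS2164_IR against CS2164 tumours 9.69%, 18.8% with trends removed and 23.9% without both libraries. The cause was not tested.

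Over all 60 member differences, 78 of 1362 values under alternatives changed sign. For the 39 differences that involve CD38 or PARP1, compare CS2164 with control or exceed their standard error, 28 of 885 did. A further 840 stayed the same, which means that direction and side of the threshold were kept. For the radiation differences of CD38 and PARP1, which carry no test, it means a shift under the gene's pooled SD within groups. Another 11 values became called, and 6 of the untested ones moved by at least that SD. With GC and length trends removed, in CS2164 against control tumours PARP1 was at -0.15 (-0.14 with the replicate block), NADSYN1 at -0.25 (-0.24), NAPRT at -0.11 (-0.12) and NNMT at 0.02 (0.09). With longest-transcript length NAPRT was at -0.07 and NNMT at 0.05, while PARP1 stayed at 0.12 and NADSYN1 stayed positive. Without both libraries NAPRT was at -0.11. With 1 library left out NAPRT ranged from -0.18 to 0.32, NNMT from -0.84 to 0.29 and SIRT6 from -0.55 to 0.00, and CD38 in CS2164_IR against IR tumours from -0.16 to 0.12. NADSYN1 in CS2164_IR against control tumours was at -0.09 with trends removed, with or without the block, and at -0.01 with longest-transcript length. For the interaction PARP1 was at 0.03 (0.02 with the block), NADSYN1 at 0.28 (0.27), and PARP2 at -0.05 with longest-transcript length, -0.03 without both libraries and 0.15 to 0.47 with 1 library left out. With longest-transcript length the interactions of PARP1 and NADSYN1 were negative. In the pairs of irradiated against unirradiated groups, CD38 was at -1.41 to -0.78 and PARP1 at -0.68 to -0.18 over the alternatives. These ranges are a description. Both genes were chosen for this fall, and their libraries did not overlap there, so leaving libraries out could hardly reverse the sign.

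Same-numbered libraries of different groups correlated at -0.372 to 0.149 in their deviations from group means, and 3 of 12 libraries correlated best with their own number, so the numbers were not taken to pair the samples. Depth limits NNMT most.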
